A study of Mus musculus with 8 samples.

Results

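The BCL2 family decides whether a stressed cell releases the contents of its mitochondria and dies. Its anti-apoptotic proteins hold in check the effectors, which open pores in the outer mitochondrial membrane, and the BH3-only proteins respond to damage, growth factor loss or other stress by occupying the anti-apoptotic proteins or by activating the effectors. All these proteins meet through a short helix called the BH3 domain. The family is known in mammary epithelium for its part in the removal of milk-secreting cells after weaning, and in lymphocytes for setting how long the cells live.

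The 10 BCL2 family members described here were chosen by name as commonly studied regulators of each class, and not by a threshold on their values. The choice was made with earlier results of these data known. The members are 3 anti-apoptotic genes (Bcl2, Bcl2l1 and Mcl1), 2 effectors (Bax and Bak1) and 5 BH3-only genes (Bcl2l11, Bbc3, Pmaip1, Bid and Bad). The 10 members were found among 27179 gene rows, and all 10 passed the filter on low counts.

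RNA sequencing was performed on 8 whole primary tumours of 4T1.13, a metastatic murine mammary carcinoma line. The tumours grew in the inguinal mammary fat pad of female BALB/c mice that were 7 to 8 weeks old at injection. In the miR-21-KD group (n = 4) the injected cells carried the miArrest lentiviral vector, in which an H1 promoter drives an RNA that sequesters miR-21, and in the vector control (VC) group (n = 4) they carried pEZX-AM03 with a scrambled RNA that sequesters nothing. Both vectors also carry mCherry and hygromycin resistance, and each line was a pool of 6 clones. Sample labels give 100000 injected cells and day 14 for the tumours, whereas the study's text gives a larger inoculum for 4T1.13 tumours and day 12. The sequestering vector was put into the injected cells only, and miR-21 in the host cells of the tumour was not measured. The abundance of the miR-21 transcript is no check of a sequestering knockdown.

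Between 12134849 and 13592695 reads per VC tumour and between 12550898 and 12783800 per miR-21-KD tumour were counted on genes. Levels are scaled counts (CPM), which relate a gene's reads to the size of the library, corrected by TMM factors for differences in library composition. A count of 0 allows up to 3 counts, or 0.221 to 0.247 CPM depending on the tumour, for counting error only. Of 14382 genes tested by edgeR's quasi-likelihood test with Benjamini-Hochberg adjustment over all of them, 39.1% had an adjusted p under 0.05, which is the threshold for a call here. Of the tested genes 19.6% were called higher in miR-21-KD and 19.5% lower, and in 35.2% the CPM of the groups did not overlap. The p-values measure the spread between tumours that come from 1 pool of clones per group.

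Markers of some of the cell types that whole tumours hold differed between the groups. Of 10 macrophage and monocyte markers 9 were called higher and none lower in miR-21-KD, with a summed level of 2982 to 4342 CPM in VC and 5941 to 9200 CPM in miR-21-KD. Of 10 T cell markers 7 were called higher and none lower, with sums of 189 to 410 CPM and 463 to 807 CPM. Of 7 fibroblast markers 5 were called higher and none lower, with sums of 3062 to 8041 CPM and 10460 to 23375 CPM. None of these 3 lists had a marker at 0 in every tumour. Fewer markers of the other host cells were called, with 2 of 6 NK cell and 1 of 7 endothelial markers higher and none of 5 B cell or 7 neutrophil markers called. The epithelial list, which checks the labelled carcinoma, was detected throughout, with 5 markers called higher, 1 lower (Krt18) and sums of 1287 to 2214 CPM in VC and 841 to 1884 CPM in miR-21-KD. The part of these cells in the results below was not tested, and in whole tumours fewer cells of a type cannot be told apart from less RNA per cell.

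The coding stretch of the BH3 core is shown for 9 members, because this is the element through which the family is defined. Each stretch is 30 bases of the coding strand, 5′ to 3′, read from GRCm38 (mm10, the build named by the submitters) with the GENCODE transcript of the member. Capitals mark the codon of the conserved leucine and the adjacent codons of the small residue and aspartate that follow 3 residues later.
Bcl2, chr1:106712578-106712607, minus strand, exon 1 of 2: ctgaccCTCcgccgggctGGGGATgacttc
Bcl2l1, chr2:152829700-152829729, minus strand, exon 2 of 3: caagcgCTGagagaggcaGGCGATgagttt
Mcl1, chr3:95659430-95659459, plus strand, exon 1 of 3: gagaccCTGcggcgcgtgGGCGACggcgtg
Bax, chr7:45466000-45466029, minus strand, exon 3 of 6: gagtgtCTCcggcgaattGGAGATgaactg
Bak1, chr17:27022534-27022563, minus strand, exon 4 of 6: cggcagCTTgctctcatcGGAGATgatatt
Bcl2l11, chr2:128147144-128147173, plus strand, exon 3 of 4: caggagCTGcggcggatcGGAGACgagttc
Bbc3, chr7:16313767-16313796, plus strand, exon 3 of 4: gcccagCTGcggcggatgGCGGACgacctc
Bid, chr6:120897292-120897321, minus strand, exon 4 of 6: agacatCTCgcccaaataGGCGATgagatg
Bad, chr19:6950786-6950815, plus strand, exon 3 of 4: cgtgagCTCcgaaggatgAGCGATgagttt

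In the 9 stretches the small residue is a glycine in all but Bbc3, where it is an alanine (GCG), and Bad, where it is a serine (AGC). The pattern (leucine, any 3 residues, then glycine, alanine or serine, then aspartate) was present in all 10 members, but it is short and was also present in 32.8% of 22396 predicted mouse proteins. A rarer element separated the members by structure. The run asparagine-tryptophan-glycine-arginine of the BH1 domain, found in 0.103% of those proteins, was present in Bcl2, Bcl2l1, Mcl1 and Bax and in none of the 5 BH3-only members, and the exact run was not matched in Bak1.

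The guide that was sequestered is miR-21a-5p, shown here because its seed gives the letters searched in the members. Its mature sequence (RefSeq, GRCm38.p6, chr11:86584120-86584141, minus strand) is given with the seed, bases 2 to 8, in capitals.
mmu-miR-21a-5p: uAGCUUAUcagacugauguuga

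The complement of that seed, ATAAGCT, was searched on the transcript strand of the 3′ UTRs. It occurred in 1 of the 10 members, Bcl2l11, the gene of BIM, at base 1826 of a 3′ UTR of 4218 bases, and the stretch around it is printed with the match in capitals.
Bcl2l11, chr2:128160139-128160168, plus strand, exon 4 of 4: tatatgtatattacctATAAGCTtccttct

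The base after this match is not an A, which is the base that extends the usual longer site. Such a match was held by 6.13% of 22396 3′ UTRs in all and by 30.6% of the 1068 that are at least as long as that of Bcl2l11. The 6-base match TAAGCT, contained in the longer one, occurred 2 times in Bcl2, 1 time in Mcl1 and 1 time in Bcl2l11, and 20.3% of all 3′ UTRs held it. A match of letters is a description of the sequence and not a measured site.

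The members covered a wide range of levels, which can be compared between genes only per length of exon. On the scale of CPM per kilobase of annotated exon, Mcl1 was at 115 ± 17.0 in VC and 183 ± 23.7 in miR-21-KD (SD, n = 4 each). The effectors came next, with Bax at 83.8 ± 8.05 in VC and 94.5 ± 3.93 in miR-21-KD and Bak1 at 57.1 ± 5.21 and 54.2 ± 2.86. Bcl2l1, which encodes BCL-XL, was at 26.0 ± 3.36 and 25.9 ± 0.650. These 4 genes kept separate ranges within each group, so their order was larger than the spread between tumours.

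Below them several neighbours overlapped. Bid was at 15.7 ± 4.49 CPM per kilobase in VC and Bcl2l11 at 13.02 ± 2.06, and their ranges overlapped, as did those of Bcl2l11 and Bad (10.7 ± 1.20), which was in turn separate from Pmaip1. Pmaip1 at 4.87 ± 1.86, Bcl2 at 4.22 ± 1.37 and Bbc3 at 2.69 ± 0.542 were the lowest, and neighbours among these 3 overlapped in VC. In miR-21-KD, Bad at 12.1 ± 1.94 stood above Bcl2l11 at 9.49 ± 0.768, the only change of order, with ranges that still overlapped, while Bid was separate from Bad and Pmaip1 from Bcl2. Bcl2, the founding gene of the family, was thus listed far below Mcl1 and Bcl2l1 in both groups.

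**Figure D1:**
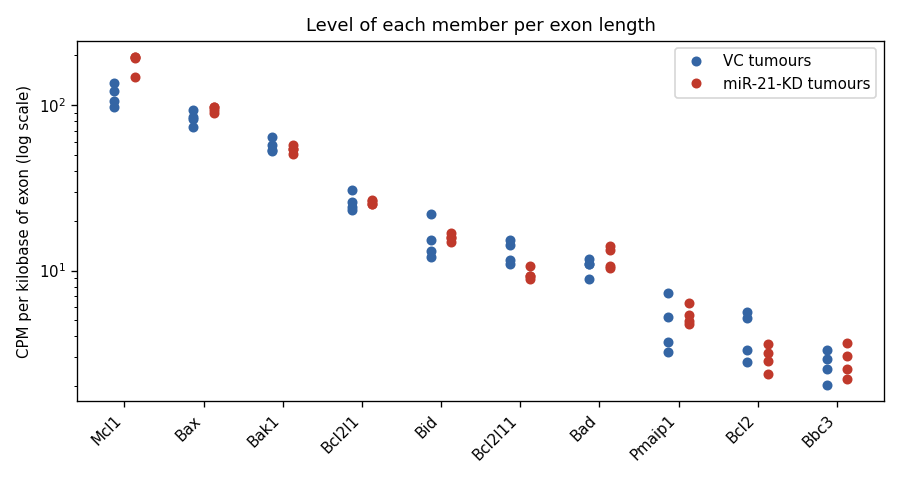
Level of each BCL2 family member in CPM per kilobase of exon on a log axis, with 1 point per tumour (blue, 4 VC tumours; red, 4 miR-21-KD tumours) and genes ordered by their VC mean. Mcl1 is highest in both groups (means of 115 and 183), and Bbc3 is lowest (2.69 and 2.87).

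Of the 10 members 2 were called, or 20.0%, against 39.1% of all tested genes: Mcl1 rose (1 member, against 19.6% of genes called higher) and Bcl2l11 fell (1 member, against 19.5% called lower). The same 2 members were the ones whose groups did not overlap, against 35.2% of all tested genes. For the 10 members the log2 fold change had a median of 0.06, against -0.01 over the 14382 genes, and the median size of the change regardless of sign was 0.15 for the members and 0.37 for all genes. The share of members called was thus below the background in the main fit, a difference that was not tested. Without VC tumour 3 the shares were nearly equal, at 2 of 10 members and 2936 of 14636 genes. In the other alternatives the share of members was the lower one.

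**Figure D2:**
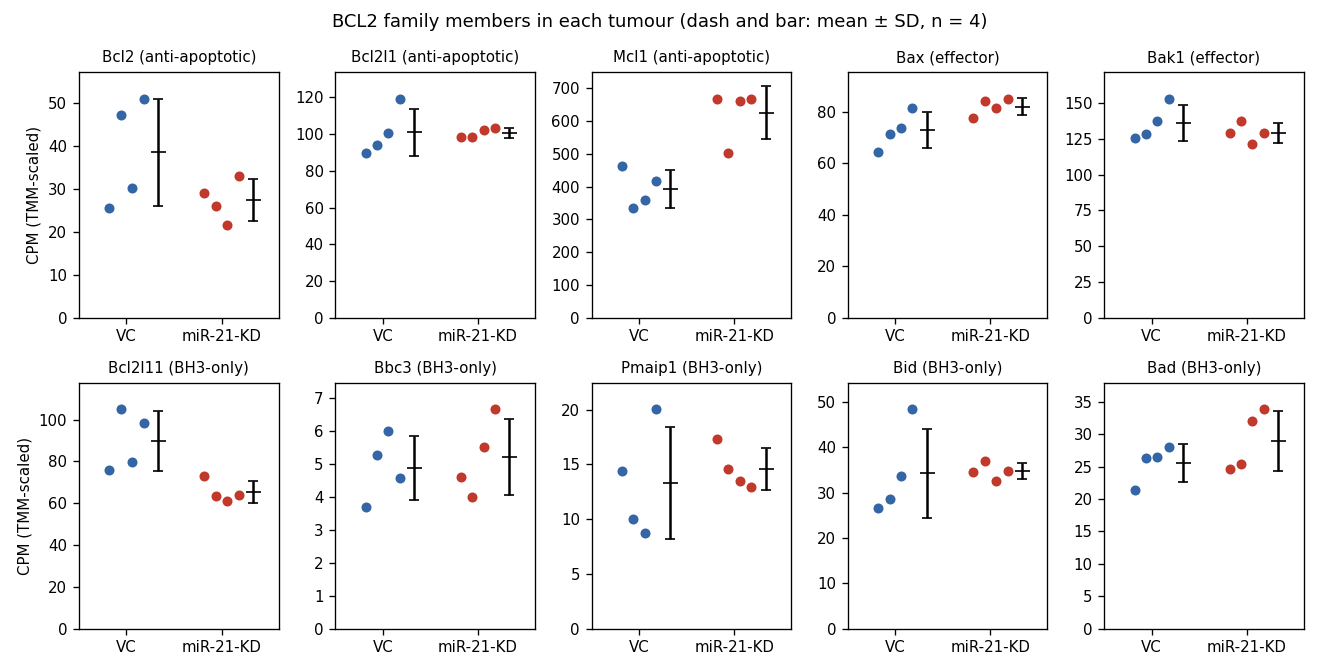
CPM of each BCL2 family member in the 4 VC tumours (blue) and the 4 miR-21-KD tumours (red), with the mean and SD of each group in black and an axis from 0 in each panel. Mcl1 lies between 503 and 668 CPM in miR-21-KD, above all VC tumours, and Bcl2l11 between 61.3 and 73.2 CPM, below all VC tumours.

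Among the anti-apoptotic genes, Mcl1 encodes a short-lived protein that binds BIM, PUMA, NOXA and BAK and on which many lymphocytes and myeloid cells depend. It was at 463, 334, 360 and 418 CPM in VC tumours 1 to 4 and at 668, 503, 661 and 666 CPM in miR-21-KD tumours 1 to 4. Every miR-21-KD tumour was above every VC tumour, and miR-21-KD tumour 2 stood apart below the other 3 of its group. The mean rose from 394 ± 57.9 to 625 ± 80.9 CPM, a log2 fold change of 0.67 (SE 0.14, 95% interval 0.34 to 0.99, n = 4 each, edgeR adjusted p = 0.0108). Mcl1 ranked 1615 by p among the 14382 genes tested. The counts do not separate the long Mcl1 transcript from the shorter one that encodes a pro-apoptotic form.

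Bcl2 encodes a protein that keeps cells alive in the absence of growth factors and is known for its role in lymphoma. It was at 25.7, 47.4, 30.3 and 51.1 CPM in VC tumours 1 to 4 and at 29.0, 26.1, 21.6 and 33.1 CPM in miR-21-KD tumours 1 to 4. VC tumours 2 and 4 were above all miR-21-KD tumours and VC tumours 1 and 3 among them, so the groups overlapped, although all 4 miR-21-KD tumours were below the VC mean. The log2 fold change was -0.49 (SE 0.24, 95% interval -1.03 to 0.05, edgeR adjusted p = 0.127). Without VC tumour 1 it was -0.64 with an edgeR adjusted p of 0.0465, and of 16 alternatives this was the only one in which Bcl2 was called.

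Bcl2l1 gives rise to the anti-apoptotic BCL-XL and, by another splice site, to the pro-apoptotic BCL-XS, which the counts do not separate. It was at 89.8, 93.9, 100.6 and 119 CPM in VC tumours 1 to 4 and at 98.4, 98.7, 102 and 103 CPM in miR-21-KD tumours 1 to 4. The miR-21-KD tumours were close together and lay inside the VC range. The log2 fold change was -0.0038 (SE 0.10, 95% interval -0.22 to 0.22, edgeR adjusted p = 0.979), and its sign changed with the scaling, being 0.039 with upper-quartile scaling.

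The effectors Bax and Bak1 form the pores of the outer mitochondrial membrane. Bax was at 64.3, 71.5, 73.7 and 81.3 CPM in VC tumours 1 to 4 and at 77.4, 84.1, 81.2 and 85.0 CPM in miR-21-KD tumours 1 to 4. The groups overlapped at the upper end of VC, and all 4 miR-21-KD tumours were above the VC mean. The log2 fold change was 0.17 (SE 0.09, 95% interval -0.02 to 0.37, edgeR adjusted p = 0.136).

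Bak1, which sits in the membrane in healthy cells and is restrained by MCL1 and BCL-XL, was at 126, 128, 138 and 153 CPM in VC tumours 1 to 4 and at 129, 138, 121 and 129 CPM in miR-21-KD tumours 1 to 4. The groups overlapped over much of their range, with the highest value in VC tumour 4. The log2 fold change was -0.07 (SE 0.09, 95% interval -0.27 to 0.12, edgeR adjusted p = 0.523). Exons of Bax share 192 bases with the gene model Gm45808 on the same strand, and exons of Bak1 share 614 bases with Ggnbp1 on the opposite strand. How reads in such stretches were counted is not given in the sources used here, so the levels of these genes carry that uncertainty, as do those of Bad (524 bases shared with Gpr137) and Bcl2 (558 bases shared with D630008O14Rik).

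Among the BH3-only genes, Bcl2l11 encodes BIM, which binds all the anti-apoptotic proteins and is needed for the death of lymphocytes after cytokine loss. It was at 76.0, 105, 79.5 and 98.7 CPM in VC tumours 1 to 4 and at 73.2, 63.6, 61.3 and 63.8 CPM in miR-21-KD tumours 1 to 4. Every miR-21-KD tumour was below every VC tumour, but the gap between the highest miR-21-KD tumour and the lowest VC tumour was small. The mean fell from 89.8 ± 14.2 to 65.5 ± 5.30 CPM, a log2 fold change of -0.46 (SE 0.12, 95% interval -0.73 to -0.18, edgeR adjusted p = 0.0203). This call was lost in 3 of the fits that left out a tumour. The log2 fold change and edgeR adjusted p were -0.38 and 0.0540 without VC tumour 2, -0.43 and 0.0562 without miR-21-KD tumour 3, and -0.44 and 0.0558 without miR-21-KD tumour 4. In these smaller fits the calls over all genes fell too, from 5626 to 3290, 3750 and 3366 in that order. Bcl2l11 is also the member whose 3′ UTR holds the miR-21 seed match printed above. The paper describes reported miR-21 targets as lowered by miR-21, whereas Bcl2l11 was lower where miR-21 was sequestered. Any action of miR-21 on Bcl2l11 was not tested, and the counts do not separate the splice forms of this gene.

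Bbc3 and Pmaip1 encode PUMA and NOXA, both known as targets of p53. Bbc3 was at 3.69, 5.27, 5.99 and 4.58 CPM in VC tumours 1 to 4 and at 4.61, 4.01, 5.52 and 6.65 CPM in miR-21-KD tumours 1 to 4. These levels rest on 50 to 85 counts per tumour, and the groups overlapped over most of their range. The log2 fold change was 0.09 (SE 0.23, 95% interval -0.43 to 0.61, edgeR adjusted p = 0.771).

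Pmaip1, which neutralises MCL1 in particular, was at 14.4, 10.1, 8.75 and 20.0 CPM in VC tumours 1 to 4 and at 17.3, 14.6, 13.5 and 12.9 CPM in miR-21-KD tumours 1 to 4. The VC tumours enclosed the miR-21-KD tumours on both sides. The log2 fold change was 0.13 (SE 0.26, 95% interval -0.45 to 0.71, edgeR adjusted p = 0.702). Trp53, the gene of p53, had a log2 fold change of 0.02 (edgeR adjusted p = 0.839).

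Bid is cut by caspase-8 and so carries the death receptor signal to mitochondria, and Bad is held inactive by growth factor kinases and 14-3-3 proteins. Bid was at 26.6, 28.6, 33.7 and 48.3 CPM in VC tumours 1 to 4 and at 34.6, 36.9, 32.6 and 34.8 CPM in miR-21-KD tumours 1 to 4, again within the VC range. Its log2 fold change was 0.02 (SE 0.18, 95% interval -0.39 to 0.43, edgeR adjusted p = 0.936) and -0.0043 when libraries were scaled by their size alone. Bad was at 21.4, 26.3, 26.4 and 28.0 CPM in VC tumours 1 to 4 and at 24.7, 25.4, 32.1 and 33.8 CPM in miR-21-KD tumours 1 to 4. Its groups overlapped, with 2 miR-21-KD tumours above all VC tumours, and the log2 fold change was 0.18 (SE 0.14, 95% interval -0.14 to 0.50, edgeR adjusted p = 0.320).

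**Figure D3:**
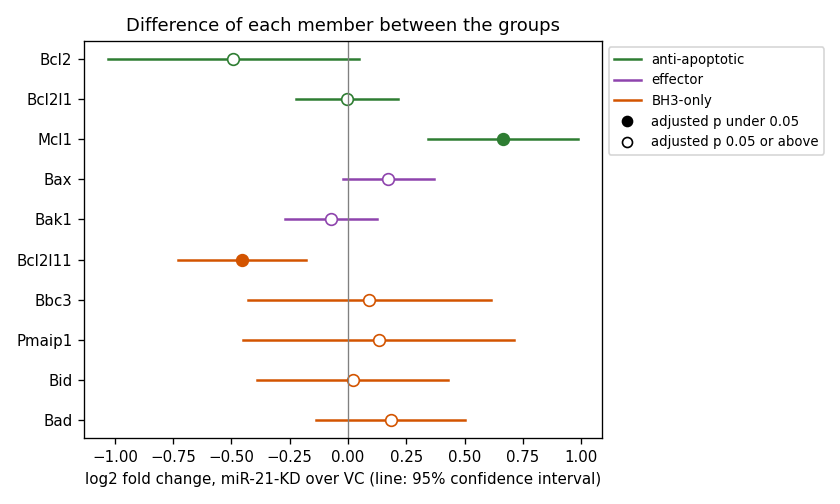
Log2 fold change of each BCL2 family member, miR-21-KD over VC, with its 95% confidence interval (line) and role (colour); filled points have an adjusted p under 0.05. Mcl1 at 0.67 and Bcl2l11 at -0.46 are filled, and the intervals of the other 8 members include 0.

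Tumours of a group differed from each other in several members at once. The numbers of members given here have no share over all tested genes beside them, so they describe no trait particular to the family. VC tumour 4 was the highest VC tumour for 7 of the 10 members and VC tumour 1 the lowest for 8. The coefficient of variation was smaller in miR-21-KD than in VC for 8 of 10 members: for Bid it was 28.7% among VC and 5.08% among miR-21-KD tumours, and for Bcl2l1 12.9% and 2.51%. In miR-21-KD these last values were near the 4.79% and 2.81% that counting alone would give. VC tumour 4 also had a summed B cell marker level of 206 CPM, against 16.7 to 20.7 CPM in the other VC tumours and 40.5 to 124 CPM in miR-21-KD. Among VC tumours it also had the highest sums of NK cell markers (110 CPM against 20.7 to 46.8) and T cell markers (410 CPM against 189 to 364) and the lowest epithelial sum (1287 CPM against 2032 to 2214). The part of those cells in the member levels was not tested.

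Because opposing members act by binding each other, pairs of a pro-apoptotic gene and an anti-apoptotic partner were compared within each tumour as the difference of their log2 CPM. These differences were described without a test, because the members were chosen with earlier results of these data known. Only some of the possible pairs were formed. Bcl2l11 was set against Mcl1 alone, although BIM binds all the anti-apoptotic proteins. The log2 fold change of Bcl2, -0.49, was close to the -0.46 of Bcl2l11, and that pair was not formed. For Bcl2l11 minus Mcl1, the VC tumours 1 to 4 were at -2.61, -1.67, -2.18 and -2.08 and the miR-21-KD tumours 1 to 4 at -3.19, -2.98, -3.43 and -3.38. All miR-21-KD tumours were below all VC tumours, with means of -3.24 ± 0.20 and -2.13 ± 0.38, and the ratio of Bcl2l11 to Mcl1 CPM was 0.0929 to 0.127 in miR-21-KD and 0.164 to 0.314 in VC. Both genes of this pair were called on their own and in opposite directions, which the difference combines.

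For Bax minus Bcl2, the VC tumours 1 to 4 were at 1.32, 0.59, 1.28 and 0.67 and the miR-21-KD tumours 1 to 4 at 1.41, 1.68, 1.90 and 1.36. The miR-21-KD tumours were all above the VC tumours, by little for the closest pair, with means of 1.59 ± 0.25 and 0.96 ± 0.39. The ratio of Bax to Bcl2 CPM was 2.56 to 3.74 in miR-21-KD and 1.51 to 2.50 in VC, although neither gene was called. Among single genes the groups did not overlap in 35.2% of all tested genes, and no such share was computed for pairs of genes. A pair without overlap is therefore not read as a trait of the family. The other 5 pairs (Bak1 and Bcl2l1, Pmaip1 and Mcl1, Bbc3 and Bcl2l1, Bid and Bcl2, Bad and Bcl2l1) overlapped between the groups, with differences of the means from -0.47 for Pmaip1 minus Mcl1 to 0.51 for Bid minus Bcl2.

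**Figure D4:**
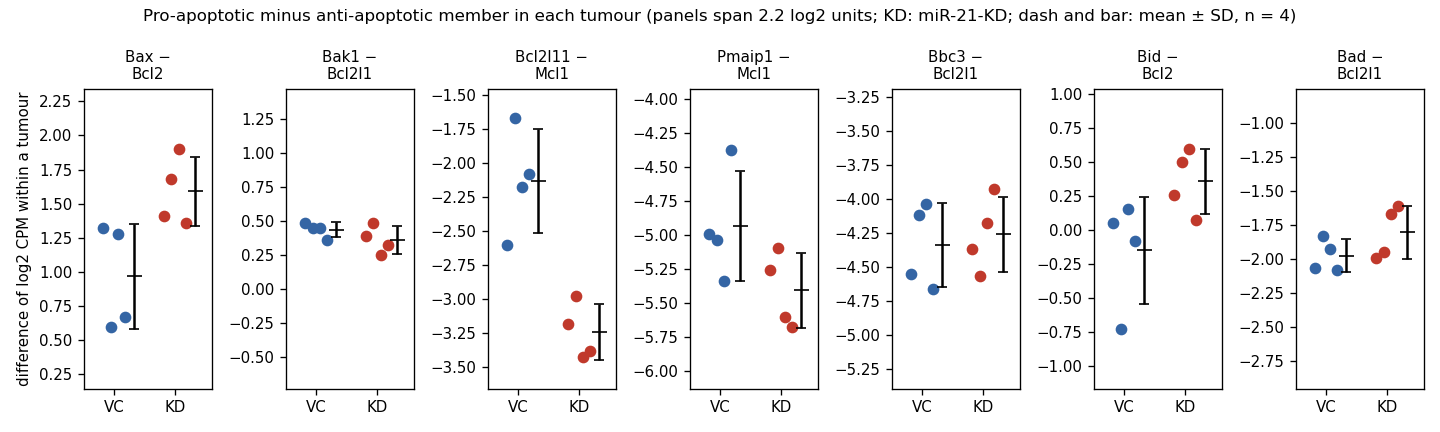
Difference of log2 CPM between a pro-apoptotic and an anti-apoptotic member within each tumour for 7 pairs (blue, VC; red, miR-21-KD; black, mean and SD), with the same span of log2 units in each panel. Bcl2l11 minus Mcl1 is lower (mean -3.24 against -2.13) and Bax minus Bcl2 higher (1.59 against 0.96) in all 4 miR-21-KD tumours, and the other 5 pairs overlap.

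The genes whose pattern over the 8 tumours was most like that of the called members were sought among 14144 tested genes, by the root mean square difference of log2 CPM after each gene's mean was removed. For Mcl1 they were Fbxo33 (0.066), Tmem170b (0.077) and Ostf1 (0.081), where the median over all genes was 0.491. For Bcl2l11 they were Gpsm1 (0.052), Thra (0.060) and Crtc1 (0.071), with a median of 0.377. The likeness includes the difference between the groups and so is partly fixed by the call.

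Beyond the 10 members, the list of other BCL2 family genes held 16, of which 13 were tested, 4 were called higher and none lower (30.8% against 39.1% of all genes), with a median log2 fold change of 0.56. Bcl2a1b, a copy of the anti-apoptotic A1 gene that leukocytes express, rose from 20.4 ± 6.30 to 51.1 ± 11.9 CPM, a log2 fold change of 1.33 (SE 0.24, edgeR adjusted p = 0.00719). Its tumours did not overlap, with VC at 15.8 to 29.4 CPM and miR-21-KD at 39.0 to 63.2 CPM. Bcl2l14, which encodes BCL-G, rose from 4.12 ± 1.65 to 12.9 ± 3.47 CPM, a log2 fold change of 1.64 (SE 0.34, edgeR adjusted p = 0.00983), also without overlap. The other called genes were Bcl2a1a at 1.01 (edgeR adjusted p = 0.0445) and the BH3-only gene Bik at 1.29 (edgeR adjusted p = 0.0383), both with overlapping groups. These 2 calls were lost in 7 and 8 of 16 alternatives, with adjusted p up to 0.115 and 0.106 (edgeR). The A1 copies are nearly identical, so reads may have been split between them, and Bcl2a1c was at 0 in every tumour.

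Of the tested genes of this list that were not called, Bok, which encodes a pore-forming relative of BAX, had the lowest log2 fold change, -1.09 (edgeR adjusted p = 0.0648). Bcl2a1d at 0.81, Bnip3 at 0.56, Bcl2l15 at 0.70, Bmf at 0.50, Bcl2l12 at 0.37, Bcl2l13 at 0.22, Bcl2l2 at 0.14 and Bnip3l at -0.16 made up the rest. Bcl2l10 and Hrk, with at most 3 counts in a tumour, were not tested. With the replicate number as a block Bik was no longer called (edgeR adjusted p = 0.0706), whereas Bok at -1.26 (edgeR adjusted p = 0.0121), Bcl2a1d at 0.88 (edgeR adjusted p = 0.0174) and Bcl2l13 at 0.22 (edgeR adjusted p = 0.0496) were. Over the 16 alternatives, DESeq2 among them, Bok and Bcl2a1d were called in 5 each and Bcl2l13 in 7. The count of called genes was 2 without any one of VC tumours 2 and 3 and miR-21-KD tumours 1, 3 and 4.

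Downstream of the members, 6 of 17 genes of the mitochondrial execution list were called (35.3% against 39.1% of all genes), 3 in each direction. Birc5, the survivin gene, known chiefly for its role in cell division, fell by 1.38 on the log2 scale (edgeR adjusted p = 0.00989), and Aifm1, a mitochondrial flavoprotein, fell by 0.56 (edgeR adjusted p = 0.00833). Birc3, an inhibitor of apoptosis and a target of NF-kB, rose by 0.57 (edgeR adjusted p = 0.0124), and Birc2 and the apoptosome gene Apaf1 rose by 0.28 and 0.36 (edgeR adjusted p = 0.0362 and 0.0190). The call of Apaf1 was lost without VC tumour 2 or 3 (edgeR adjusted p = 0.0569 and 0.0632), and that of Birc2 in 7 of 16 alternatives, with adjusted p up to 0.109 (edgeR, without VC tumour 2). Casp9 was at -0.15, Diablo at -0.06 and Htra2 at -0.37, none of them called. With the replicate block Htra2 was called at the same -0.37 (edgeR adjusted p = 0.0258). Cycs was at only 4.24 and 4.12 CPM in the groups, and its many processed copies make that level uncertain.

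On the death receptor side, which reaches the family through Bid, 7 of 12 genes were called (58.3% against 39.1% of all genes), 6 higher and 1 lower. Fas, the receptor, rose from 14.1 ± 3.45 to 28.6 ± 0.593 CPM, a log2 fold change of 1.02 (SE 0.17, edgeR adjusted p = 0.00632), with miR-21-KD tumours all at 27.8 CPM or above and VC tumours at 18.3 CPM or below. Tnf rose by 1.20 on the log2 scale, Ripk1 by 0.48 and Tnfrsf1a by 0.29 (edgeR adjusted p = 0.0147, 0.00931 and 0.0210). Casp8, which encodes the protease that cuts BID, was the gene that fell, by 0.30 (edgeR adjusted p = 0.0272), while Bid itself was at 0.02. The call of Casp8 was lost without VC tumour 1, 2 or 3 or miR-21-KD tumour 3 or 4, with edgeR adjusted p of 0.0514 to 0.0759, and that of Tnfrsf1a in 4 of 16 alternatives (up to 0.0704). The number called in this list was 4 without VC tumour 2, miR-21-KD tumour 3 or miR-21-KD tumour 4 and 3 without VC tumour 3.

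Of 18 tested transcription factors known to act on family genes, 3 were called higher and 1 lower (22.2% against 39.1% of all genes). Stat5b, Rela and Rel, of which the last is a known activator of A1 and Bcl2l1, rose by 0.48, 0.30 and 0.82 on the log2 scale (edgeR adjusted p = 0.00700, 0.0133 and 0.0324). The call of Rel was lost without VC tumour 2, 3 or 4 or miR-21-KD tumour 1 or 3 (edgeR adjusted p of 0.0582 to 0.0873). E2f1 fell by 0.73 (edgeR adjusted p = 0.0105). With the replicate block 6 transcription factors were called in place of 4, with Stat5a (0.31, edgeR adjusted p = 0.0352) and Trp63 (1.78, edgeR adjusted p = 0.0314) added. Foxo3, known for driving Bcl2l11, was at 0.29 and was not called (edgeR adjusted p = 0.158).

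Of 21 genes whose proteins modify or hold family proteins, 3 were called higher and 6 lower (42.9% against 39.1% of all genes). Pim1, a kinase that phosphorylates BAD, rose from 68.4 ± 24.6 to 151 ± 15.4 CPM, a log2 fold change of 1.14 (edgeR adjusted p = 0.0103), and Sfn, a 14-3-3 protein of epithelia, rose from 2.63 ± 0.649 to 10.9 ± 4.82 CPM, at 2.05 (edgeR adjusted p = 0.00870). Ywhaq, another 14-3-3 gene, and Dynll1, the light chain that tethers BIM to dynein, fell by 0.61 and 0.52 on the log2 scale (edgeR adjusted p = 0.00601 and 0.0105). The genes of MCL1 turnover, Huwe1 at -0.29, Fbxw7 at -0.06 and Usp9x at 0.04, were not called, although Huwe1 was with the replicate block (-0.28, edgeR adjusted p = 0.0258). Several 14-3-3 genes have processed copies, which makes their levels uncertain.

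**Figure D5:**
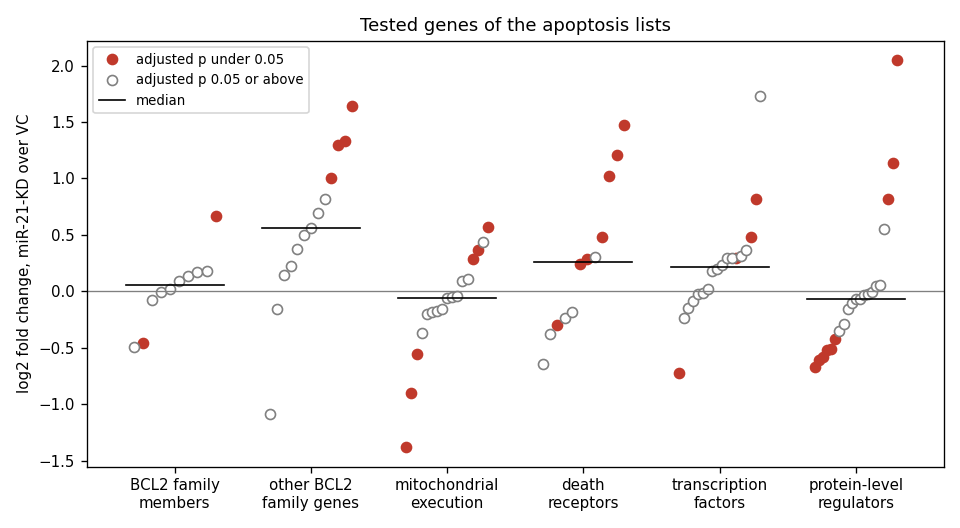
Log2 fold change, miR-21-KD over VC, of each tested gene of the BCL2 family members and of the 5 further lists, with red points for an adjusted p under 0.05, open points for the rest and a line at the median of each list. The 10 members lie between -0.49 and 0.67, and the medians range from -0.06 for 2 of the lists to 0.56 for the other BCL2 family genes.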

How the data were processed

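Whole tumours were profiled by RNA sequencing of DNase-treated total RNA, and the authors deposited an unnormalized table of read counts for each Entrez gene, 1 column per tumour. The submitters' processing notes name Subread, featureCounts, edgeR, limma and mm10. Strand setting, annotation version and treatment of overlapping genes are not given in the sources used here. Symbols from GRCm38.p6 matched 25275 of 27179 identifiers.

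Counts were analysed in R 4.3.3 with edgeR 4.0.16. Genes kept by filterByExpr (minimum count 10, minimum total 15) numbered 14382 and held 99.852% of counts. Scaling used TMM factors. The group difference was tested over all 8 tumours by the robust quasi-likelihood method, with Benjamini-Hochberg adjustment and a threshold of 0.05. For log2 CPM, 2 counts were added as a prior. The 95% intervals are for the log2 fold change. The tests were checked on simulated data. Alternatives were DESeq2 1.42.0, limma-voom 3.58.1 with and without quality weights, upper-quartile scaling, library size alone, no filter, at least 10 counts in every tumour, a replicate block, and each tumour left out. Depth was 12134849 to 13592695 counts per tumour.

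In each group the labels give the tumours numbers 1 to 4. After removal of group means, same-numbered tumours correlated at 0.272, 0.421, 0.175 and 0.376, against -0.393 to 0.393 (mean -0.105) for the other combinations. Not every tumour correlated best with its own number. Removing the group means makes the deviations cancel within a group. This largely fixes the mean of the other combinations, so that mean is no separate comparison. All same-numbered values were above 0.1, but so were some of the other combinations. The main fit therefore has no block, and the replicate number was used as a block in an alternative fit only. No source states a shared origin, and any pairing by number comes from the data. Blocked values or counts are given where the block changes a call.

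Transcripts and 3′ UTRs were read from GENCODE M21 on GRCm38, 1 principal coding transcript per gene, and miR-21a-5p from RefSeq. Exon bases for levels per kilobase are the union of exons of basic transcripts. The members and lists were chosen with earlier results of these data known, and the lists were written from general knowledge. Named are all members, the other family genes, up to 4 genes of each list past the threshold with the smallest p and no overlap between groups, and the 3 genes most like each called member. Apaf1, Birc2, Casp8, Casp9, Diablo, Htra2, Cycs, Foxo3, Trp53, Huwe1, Fbxw7, Usp9x, Krt18, Stat5a, Trp63, Traf2, Akt1 and the called genes whose groups overlap were named after their values were seen. The tumour level of proteins was not analysed here. The result of a gene under this rule is not reported here.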

Additional observations from a re-analysis of the deposited data

Results flagged for a closer look

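Mcl1 in miR-21-KD tumour 2 was at 503.4 CPM, the lowest of its group, and its gap to the next tumour was 0.959 of the range of the group, above the 95% value of Dixon's criterion for 4 samples. It was the only value past the criterion among 34 groups of 4 examined, and chance alone passes about 1 in 20. Without this tumour the log2 fold change of Mcl1 was 0.75 (edgeR adjusted p = 0.00331). The same tumour had the lowest summed macrophage and monocyte markers (5941 CPM) and fibroblast markers (10460 CPM) of its group, whose part in the value was not tested.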

How the results depend on the processing

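With 16 alternatives for each of the 10 members, 140 of 160 values kept their sign and side of the threshold. Mcl1 was called in all 16, with log2 fold changes of 0.59 to 0.80 and adjusted p of 6.93e-05 to 0.0393 (edgeR, DESeq2 or limma). Bcl2l11 was lost in 3 and Bcl2 gained in 1, all by leaving out a tumour. Changed signs were limited to 4 uncalled members. Bcl2l1 was 0.039 with upper-quartile scaling, 0.016 with DESeq2, 0.0043 with limma-voom, 0.038 with quality weights, 0.047 with the stricter filter and 0.0041 under the replicate block, and -0.054 (without VC tumour 1) to 0.080 (without VC tumour 4) when a tumour was left out. Leaving out a tumour gave -0.050 to 0.20 for Bbc3, with the sign changed without VC tumour 1 or miR-21-KD tumour 4, and -0.030 (without VC tumour 3) to 0.39 (without VC tumour 4) for Pmaip1. Bid was -0.0043 with library size alone, -0.011 without a filter, and -0.082 (without VC tumour 1) to 0.23 (without VC tumour 4) when a tumour was left out. The replicate block left 2 members called, the same as without it, and gave 6485 calls among all genes against 5626, with 6 other family genes, 7 mitochondrial, 8 death receptor (Traf2 added), 6 transcription and 11 protein-level genes (Akt1 and Huwe1 added) against 4, 6, 7, 4 and 9. Leaving out 1 tumour gave 1 to 3 members called, 2 to 6 other BCL2 family genes, 3 to 8 death receptor genes, 3 to 5 transcription factors and 2936 to 6840 of all genes, where fewer tumours enter the fit. The 4 counts of all genes from 2936 to 3750 came without VC tumour 2 or 3 or miR-21-KD tumour 3 or 4. DESeq2 called 7 other family genes and 7 transcription factors, and limma-voom with quality weights 9, 9 and 12 death receptor genes, against 4, 4 and 7; over all genes they called 6550 and 8179, against 5626, and the cause was not tested. Among the 10 members the lowest counts were those of Bbc3, at 50 to 85 per tumour, and Bik rested on 11 to 73.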
